A study of Mus musculus with 12 samples.

Results

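The 32 genes described here are the enzymes and transporters that carry glucose to lactate together with the sensors and classic targets of the hypoxia response, chosen by symbol among the 27179 genes counted in macrophages of the mouse mammary duct. The series compared C57BL/6 female mice at 4 stages of mammary development, with 3 libraries each from virgin mice (Virgin), mice at day 16.5 of pregnancy (Pregnant), lactating mice (Lactating) and mice 1 month after weaning (Post-weaning). No genotype, drug or transgene separates the stages, and no source used here gives the ages of the mice, the day of lactation or the sorting gate. Each library was made from 2000 sorted cells with a full-length cDNA kit for small inputs, and the series calls the 3 libraries of a stage biological replicates without saying whether each came from a separate mouse, so p-values measure the spread between these libraries. Of the 32 genes, 30 had enough counts to be tested, and Eno2 (30 counts over the 12 libraries) and Egln3 (35 counts) did not.

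Glycolysis splits glucose into pyruvate, with a small yield of ATP that needs no oxygen, and lactate dehydrogenase then turns pyruvate into lactate. The hypoxia response rests on the transcription factor subunit HIF-1alpha, which prolyl hydroxylases (the Egln enzymes) mark for degradation while oxygen is present, and which at low oxygen binds hypoxia response elements in the promoters of most glycolytic genes. Macrophages are known to raise glycolysis when activated, and HIF-1alpha takes part in that switch.

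Library totals ran from 6926273 to 21204704 counts. The 14 macrophage markers were all detected, and together they reached 76010 to 164118 CPM (counts relative to the TMM-scaled library size) in 11 libraries. The third lactating library, called Lactating 3 here, stood apart. It held 43404 CPM of these markers, where Lactating 1 held 164118 and Lactating 2 held 150442, and milk protein and milk secretion genes took 7.35% of its counts against at most 1.44% in any other library. Its summed adipocyte (673 CPM, the next library 100), endothelial (296, next 71.3) and basal epithelial markers (552, next 305) were the highest of all 12 libraries. Its luminal epithelial (264 CPM) and fibroblast markers (8.86) were not. Lactating 3 also had the highest level of all 12 libraries for 12 of the 32 genes. In 7 of the 32 genes (Hk1, Pfkl, Pfkp, Pfkfb4, Aldoc, Egln1 and Ndrg1) it lay more than 1.5 times above both other lactating libraries, and in 3 (Slc2a1, Ldha and Slc16a3) it lay below both by more than that factor. These counts were made for the 32 genes only, so they do not set the members apart from other genes. Some lactation results changed size or direction without it, and values without it are given beside several of them. The TMM factors of Lactating 1 and Lactating 2 were 0.791 and 0.792, against 1.00 to 1.14 in the other 10 libraries, so TMM raises the levels of these 2 libraries relative to scaling by library totals alone. With totals alone, an alternative chosen after seeing the data, the median log2 fold change of all genes moved from -0.06 to -0.28 in Lactating against Virgin and from -0.14 to -0.43 in Lactating against Pregnant. In bulk samples fewer cells of a type and less RNA per cell cannot be told apart.

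The promoters of Egln2, Hk2 and Ldha are shown because these genes are a prolyl hydroxylase, the main regulated hexokinase and a textbook HIF-1alpha target, and because their windows overlap no annotated exon. Each is the 250 bases before the transcription start in the RefSeq promoter table (GRCm38.p6, the assembly behind mm10), read on the gene's strand, with capitals for the cores of the hypoxia response element, ACGTG and GCGTG, on either strand (CACGT and CACGC where the match is on the other strand). Overlapping matches run together, as in CACGTG, which reads as a match on both strands. The Egln2 window lies at chr7:27166803-27167052 on the minus strand, the Hk2 window at chr6:82774455-82774704 on the minus strand, and the Ldha window at chr7:46845554-46845803 on the plus strand.
Egln2: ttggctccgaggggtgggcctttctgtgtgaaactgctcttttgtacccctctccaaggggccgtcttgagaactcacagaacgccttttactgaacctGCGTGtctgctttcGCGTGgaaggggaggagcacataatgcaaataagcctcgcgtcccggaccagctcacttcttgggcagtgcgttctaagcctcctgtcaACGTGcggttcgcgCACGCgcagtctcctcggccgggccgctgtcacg
Hk2: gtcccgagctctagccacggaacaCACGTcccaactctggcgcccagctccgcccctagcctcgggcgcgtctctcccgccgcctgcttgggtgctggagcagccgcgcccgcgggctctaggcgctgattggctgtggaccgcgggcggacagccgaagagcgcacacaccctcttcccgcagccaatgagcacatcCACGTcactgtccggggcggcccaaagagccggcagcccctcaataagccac
Ldha: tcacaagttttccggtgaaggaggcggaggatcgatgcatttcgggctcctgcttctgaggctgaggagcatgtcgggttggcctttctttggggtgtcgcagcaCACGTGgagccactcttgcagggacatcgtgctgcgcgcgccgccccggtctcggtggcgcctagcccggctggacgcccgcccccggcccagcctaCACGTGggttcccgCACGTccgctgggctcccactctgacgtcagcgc

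The Egln2 window held 4 matches, Hk2 2 and Ldha 5. Of the 31 genes in the promoter table (Ndrg1 was not matched), 24 held at least 1 match (77.4%), against 38.6% of 27025 promoters in the table and 56.9% of the 9799 tested genes that could be matched. The core is 5 letters long and common, so a match describes the sequence and is not a bound site. The promoter windows of Pkm, Aldoa, Tpi1, Gpi1, Hk1, Vegfa and Eno2 held no match within these 250 bases.

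Per kilobase of exon, the aldolase Aldoa (mean 233 CPM per kilobase over the 12 libraries) and the lactate dehydrogenase subunit Ldha (228) were the most abundant of the 32 genes, followed by the pyruvate kinase Pkm (107), Egln2 (58.2) and the triose phosphate isomerase Tpi1 (47.8). Gapdh, usually among the most abundant transcripts of a cell, stood at only 5.16 CPM per kilobase with 859 counts in all, and the phosphoglycerate kinase Pgk1 at 1.13 with 295 counts. Of the 50-base words in the Gapdh transcript (GENCODE annotation), 82.5% also occur in transcripts of other genes, 213 of those 222 genes being pseudogenes. The share was 68% for Pgk1, with 5 other genes, all pseudogenes, and 72.2% for Eno1, 62.4% for Bnip3, 41.5% for Pgam1 and 34.4% for Pkm. It was 0% for Egln2, Hk2, Hk3, Pfkfb4, Aldoc, Pfkm, Pdk1, Slc16a3, Egln1, Egln3 and P4ha1. No source used here gives how the authors' counting treated reads that match several genes, so the levels of Gapdh, Pgk1, Eno1, Bnip3, Pgam1 and Pkm are uncertain.

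**Figure D1:**
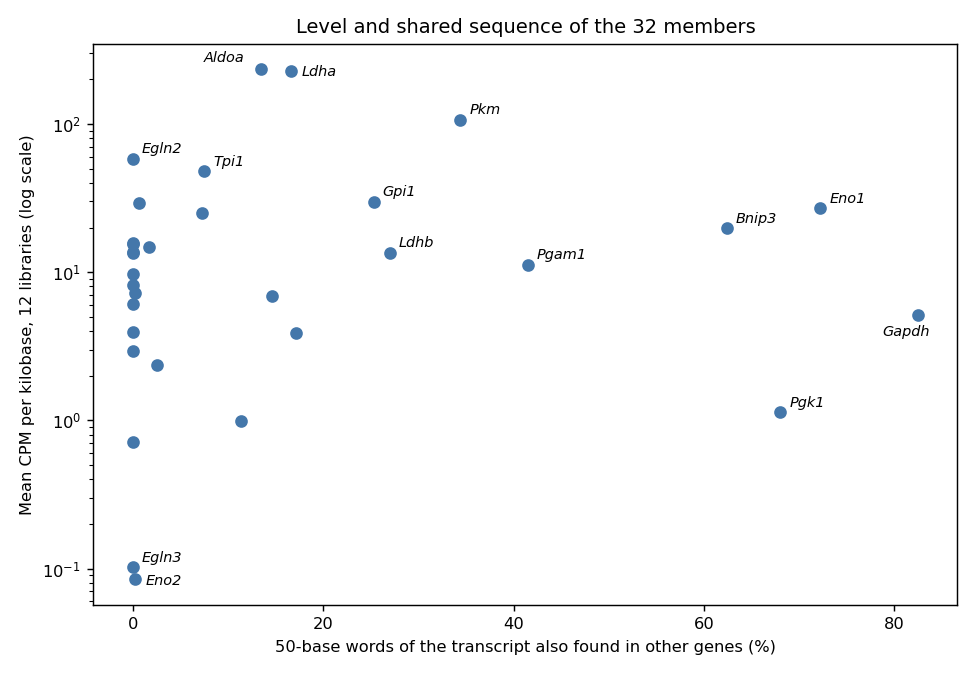
Each point is 1 of the 32 genes, with the share of its transcript's 50-base words that also occur in other genes on the x axis (percent) and its mean level over 12 libraries on the y axis (CPM per kilobase, log scale). Gapdh (82.5%) and Pgk1 (68%) sit at the right with low levels. Eno1 (72.2%, 27.0 CPM per kilobase) and Bnip3 (62.4%, 19.8) also share most of their words, at higher levels. Aldoa, Ldha and Egln2 combine a high level with little shared sequence. The part of shared sequence in these levels was not tested.

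The main change across the stages was in Egln2, which encodes the prolyl hydroxylase PHD1, an oxygen sensor that helps mark HIF-1alpha for degradation. It was low in pregnancy and high in lactation. It was the only 1 of the 30 tested genes called in the test of any difference among the 4 stages. Of all tested genes 3.35% were called in that test, a similar share. Pkm was higher in lactating than in virgin mice, and Pfkfb4, which makes and removes the activator of phosphofructokinase, was higher in lactating than in pregnant mice. With library totals alone the rise of Egln2 from Pregnant to Lactating was still called (1.82 ± 0.30, adjusted p = 0.006367 in edgeR), and Pkm (adjusted p = 0.08942) and Pfkfb4 (0.06722) were not. The call for Pfkfb4 was lost in 11 of 20 alternatives. A gene is called here at an adjusted p under 0.05 in edgeR's quasi-likelihood test, Benjamini-Hochberg adjusted over all 12672 genes tested.

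The comparison with the most calls among all genes was Lactating against Pregnant, where 3.85% of all tested genes were called and 2 of the 30 members were, Egln2 and Pfkfb4, both higher in Lactating, as were 2.65% of all tested genes. Against Virgin, Lactating had 2 members called (Pkm and Egln2, both higher) where 1.94% of all tested genes were called and 1.04% were called higher. Pregnant against Virgin had none of 30, where 1.32% of all tested genes were called. There 7 members were under an unadjusted p of 0.05 (12.2% of all genes were). DESeq2 called 3 members there (Egln2, Ldhb and Tpi1) and 664 of 12409 genes in all. Post-weaning against Pregnant had 1, Egln2, where 0.718% of all tested genes were called. Post-weaning against Lactating had no member called by edgeR where 0.923% of all tested genes were. There 7 members were under an unadjusted p of 0.05 (15.1% of all genes were). DESeq2 called 2 members there, Egln2 and Hk2, and 919 of 12409 genes in all. Post-weaning against Virgin had none, where 0% of all tested genes were called and 2 members were under an unadjusted p of 0.05 (6.04% of all genes were). DESeq2 called no member there and 123 of 12409 genes in all. The contrast of Pregnant and Lactating with Virgin and Post-weaning likewise called no member in edgeR where 1.18% of all tested genes were called. There 7 members were under an unadjusted p of 0.05 (14.8% of all genes were). DESeq2 called 1 member in this contrast, Pkm, and 827 of 12170 genes in all. The test of any stage difference called 1, Egln2, where 3.35% of all tested genes were called. Comparisons that name the same stage share its libraries and are not independent of each other.

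The fitted changes of the 30 tested members, most of them not called, were positive more often than those of all genes in lactation and also after weaning. Against Virgin, 22 of 30 were higher in Lactating (73.3%, median log2 fold change 0.61), against 46.9% of all tested genes (median -0.06), and 21 of 30 were higher in Post-weaning (70%, median 0.27), against 50.8% of all genes (median 0.02). Without Lactating 3, 18 of 31 were higher in Lactating (median 0.14, with 41.6% and -0.15 for all genes), fewer than the 22 of 31 in Post-weaning (median 0.30, with 52% and 0.03). Against Pregnant, 21 of 30 were higher in Lactating (median 0.64), against 44% of all genes (median -0.14), and without Lactating 3 they were 21 of 31 (median 0.36), against 38.5% (median -0.25). Post-weaning had 17 of 30 above Pregnant (median 0.15), against 50.3% of all genes. Between Pregnant and Virgin, 16 of 30 were higher in Pregnant (median 0.05), against 51.6% of all genes (median 0.03).

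In Lactating against Virgin, 8 of 30 members had all lactating libraries above all virgin ones (26.7%), against 8% of all tested genes, and 1, Ankrd37, had them all below, against 9.34%. In Lactating against Pregnant, 9 members had no overlap upward, against 9.5% of all genes, and 3 downward, against 17.1%. With library totals alone the upward counts were 6 (4.37% of all genes) and 5 (5.64%). Post-weaning had 10 members above Pregnant without overlap, against 14% of all genes, and 5 above Virgin, against 8.83%. In Pregnant against Virgin the counts were 5 upward, against 13.6% of all genes, and 6 downward, against 10.7%. The summed level of the 32 genes was 1599 to 2007 CPM in Virgin, 1845 to 2365 in Pregnant, 2695 to 3327 in Lactating and 2110 to 2431 in Post-weaning. The 3 lactating libraries lay above the other 9 on this TMM scale only. As a share of all counts in a library the members took 0.227%, 0.213% and 0.363% in Lactating, which overlapped 0.16% to 0.216% in Virgin, 0.21% to 0.25% in Pregnant and 0.211% to 0.246% in Post-weaning. Aldoa, Ldha and Pkm were the largest contributors to the summed level in each stage.

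**Figure D2:**
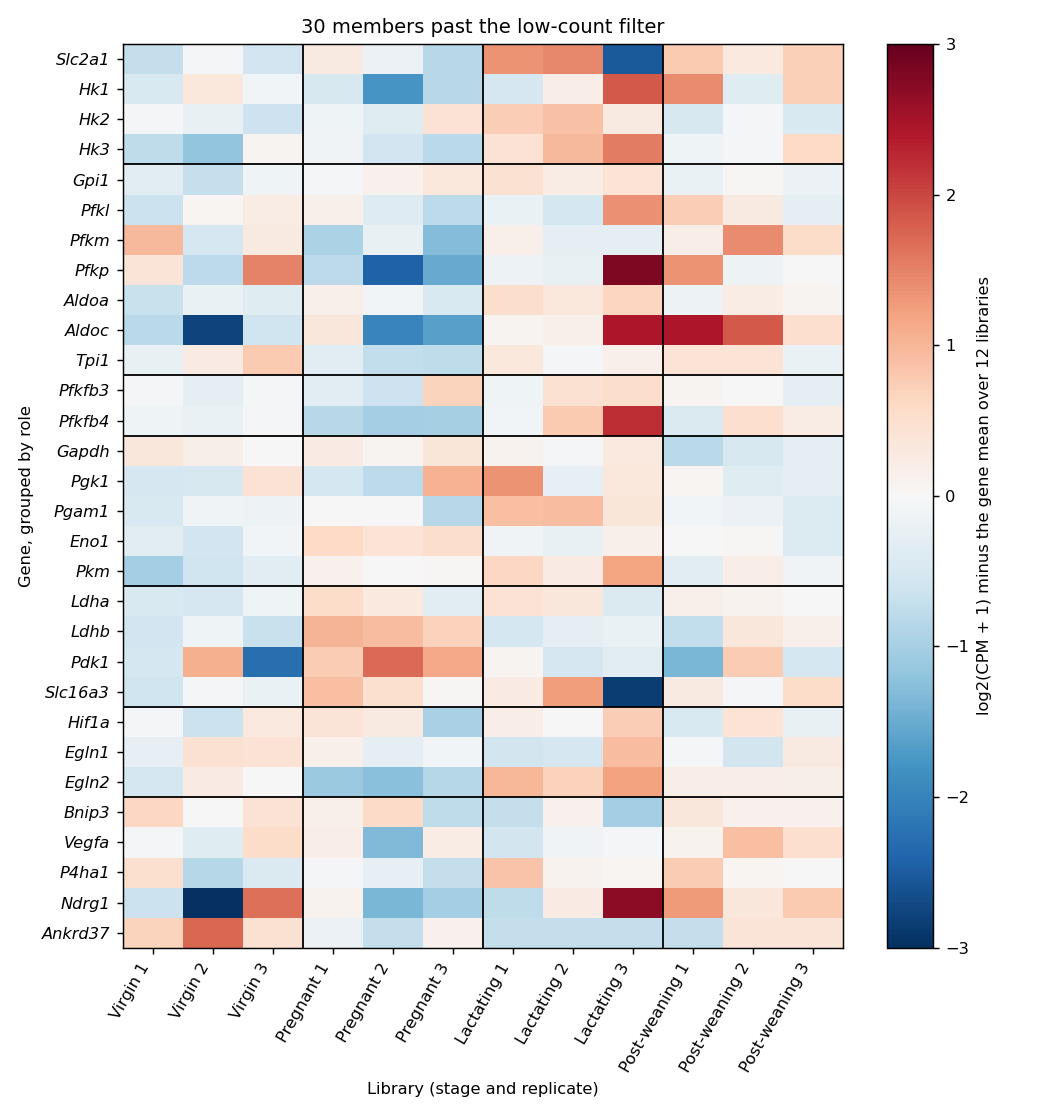
Rows are the 30 tested genes in the order of their role, columns the 12 libraries, and the colour is log2(CPM + 1) minus the gene's mean over the 12 libraries. The column of Lactating 3 holds strong colours, red for Pfkp, Aldoc, Ndrg1 and Pfkfb4 and blue for Slc2a1 and Slc16a3, and Egln2 is blue in all 3 pregnant and red in all 3 lactating libraries.

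Glucose enters the cell through Slc2a1 (GLUT1) and is trapped by hexokinases, of which Hk2 is the form that HIF-1alpha and growth signals induce, Hk3 the form typical of myeloid cells and Hk1 the housekeeping form. All 4 genes had a positive change in Lactating against Virgin (median log2 fold change 1.14), and none passed the test. Without Lactating 3, Hk1 turned from 0.98 ± 0.81 to -0.12 ± 0.78 and the other 3 remained positive. Hk3 measured 25.9, 18.9 and 47.2 CPM in the virgin libraries, 41.3, 29.4 and 25.1 in the pregnant, 60.6, 87.5 and 130 in the lactating and 40.3, 42.9 and 67.4 in the post-weaning libraries. The lactating libraries lay above all virgin and pregnant ones and overlapped the post-weaning ones (log2 fold change against Virgin 1.60 ± 0.42 (SE), adjusted p = 0.0862 in edgeR), and with library totals alone they also overlapped the virgin ones. Hk2 measured 69.1, 61.2 and 45.9 CPM in Virgin, 65.2, 54.7 and 96.1 in Pregnant, 119, 132 and 86.4 in Lactating and 50.7, 69.6 and 51.8 in Post-weaning. It lay higher in every lactating than in every virgin and post-weaning library, by 0.94 ± 0.29 on the log2 scale against Virgin (adjusted p = 0.13 in edgeR).

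Slc2a1 is named because its values split the lactating libraries, which was seen in the data. It measured 79.0 and 83.7 CPM in the first and second lactating libraries and 4.48 in Lactating 3, against 18.1 to 29.4 in Virgin, 16.7 to 36.6 in Pregnant and 37.3 to 52.9 in Post-weaning. With all libraries it was not called (1.30 ± 0.74 against Virgin, adjusted p = 0.4032 in edgeR). Without Lactating 3 it was called higher in Lactating than in Virgin (1.80 ± 0.36, adjusted p = 0.02031) and than in Pregnant (1.56 ± 0.36, adjusted p = 0.0262) in edgeR, with 2 lactating libraries left. The part that the milk genes, the markers of other cell types and the low macrophage markers of Lactating 3 play in this value was not tested.

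Within the hexokinases, Hk2 and Hk3 shared most of the summed level per kilobase and Hk1 the least. Hk2 made up 49.8% ± 13.7 (SD, n = 3) in Virgin and 54.8% ± 10.9 in Pregnant, then 40.8% ± 14.1 in Lactating and 36.4% ± 9.28 in Post-weaning, and its share in single libraries ran from 25.0% to 67.0% with all stages overlapping. Hk1 stayed between 1.98% and 19.8%. It measured 5.74, 10.5 and 7.75 CPM in Virgin, 5.67, 1.72 and 4.22 in Pregnant, 5.54, 9.68 and 32 in Lactating and 23.9, 6.22 and 14.3 in Post-weaning, and Lactating 3 was the highest of the 12.

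In the upper part of the pathway, which turns glucose 6-phosphate into triose phosphates, Gpi1 isomerises the sugar, phosphofructokinase (Pfkl, Pfkm, Pfkp) makes the committed step, aldolase (Aldoa, Aldoc) splits the product and Tpi1 interconverts the triose products. None of these 7 genes was called in any comparison in edgeR. All 7 had a positive change in Lactating against Pregnant (median 0.77), with single values from 0.23 to 3.35. Without Lactating 3, 6 of 7 did (median 0.71): Pfkl turned from 0.77 to -0.12, Pfkp came to 1.44 instead of 3.35 and Aldoc to 0.85 instead of 2.17. Against Virgin, 5 of 7 were positive in Lactating (median 0.74), and without Lactating 3 only 3 of 7 (median -0.23). Aldoa measured 256, 355 and 319 CPM in Virgin, 452, 385 and 300 in Pregnant, 591, 511 and 642 in Lactating and 371, 478 and 431 in Post-weaning. The lactating libraries lay above the other 9, though not with library totals alone, and the change against Virgin, 0.91 ± 0.21, was not called in edgeR (adjusted p = 0.05124).

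Gpi1 measured 66.9, 51.0 and 75.4 CPM in Virgin, 80.2, 90.5 and 104 in Pregnant, 115, 96.5 and 110 in Lactating and 72.1, 85.2 and 74.0 in Post-weaning. Its virgin libraries lay below the pregnant ones and, except with library totals alone, the lactating ones (0.74 ± 0.22 in Lactating against Virgin, adjusted p = 0.1177 in edgeR). Tpi1 took another course, with 62.5, 86.3 and 126 CPM in Virgin, 57.6, 43.0 and 42.3 in Pregnant, 90.3, 70.9 and 80.5 in Lactating and 97.5, 97.8 and 63.2 in Post-weaning. Its pregnant libraries were the lowest of the 12, except with library totals alone, by -0.94 ± 0.29 on the log2 scale against Virgin (adjusted p = 0.2011 in edgeR).

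Aldoc, the aldolase form best known from brain, was sparse and scattered, with 7.92, 1.27 and 9.36 CPM in Virgin, 18.7, 2.98 and 4.02 in Pregnant, 15.6, 16.3 and 83.4 in Lactating and 82.2, 55.3 and 21.3 in Post-weaning. Its virgin libraries lay below the lactating and post-weaning ones, but the spread between libraries was wide (2.64 ± 0.99 in Lactating against Virgin, adjusted p = 0.2162 in edgeR, and 1.32 ± 0.89 without Lactating 3). Aldoc supplied 2.21% ± 1.59 of the aldolase level per kilobase in Virgin and 2.16% ± 1.83 in Pregnant, against 6.09% ± 5.31 in Lactating (2.75%, 3.3% and 12.2%, with a mean of 3.02% without Lactating 3) and 11.7% ± 7.12 in Post-weaning, with Aldoa supplying the rest.

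Pfkl, the liver-type phosphofructokinase, was the main form in all 12 libraries, at 54.8% to 90.9% of the family level per kilobase. Its share was 87.6%, 90.9% and 87.7% in the pregnant libraries, above each of the other 9, whose highest was 85.3% in the second virgin library. The mean share in Pregnant was 88.7% ± 1.85 (SD, n = 3), against 65.8% ± 17 in Virgin, 67.0% ± 9.69 in Lactating and 69.3% ± 2.2 in Post-weaning. The platelet-type Pfkp took up most of the difference, at 5.0, 0.918 and 2.65 CPM in Pregnant against 12.6, 5.07 and 28.0 in Virgin, 8.32, 7.86 and 71.3 in Lactating and 25.5, 8.36 and 9.51 in Post-weaning. Pfkl itself measured 20.9, 34.3 and 38.6 CPM in Virgin, 36.9, 25.2 and 18.8 in Pregnant, 28.6, 22.5 and 86.4 in Lactating and 55.5, 39.9 and 27.4 in Post-weaning, with all stages overlapping. The muscle-type Pfkm had 259 counts in all, at 4.48, 0.951 and 2.34 CPM in Virgin, 0.445, 1.38 and 0.124 in Pregnant, 2.08, 1.28 and 1.32 in Lactating and 2.2, 6.43 and 3.11 in Post-weaning.

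**Figure D3:**
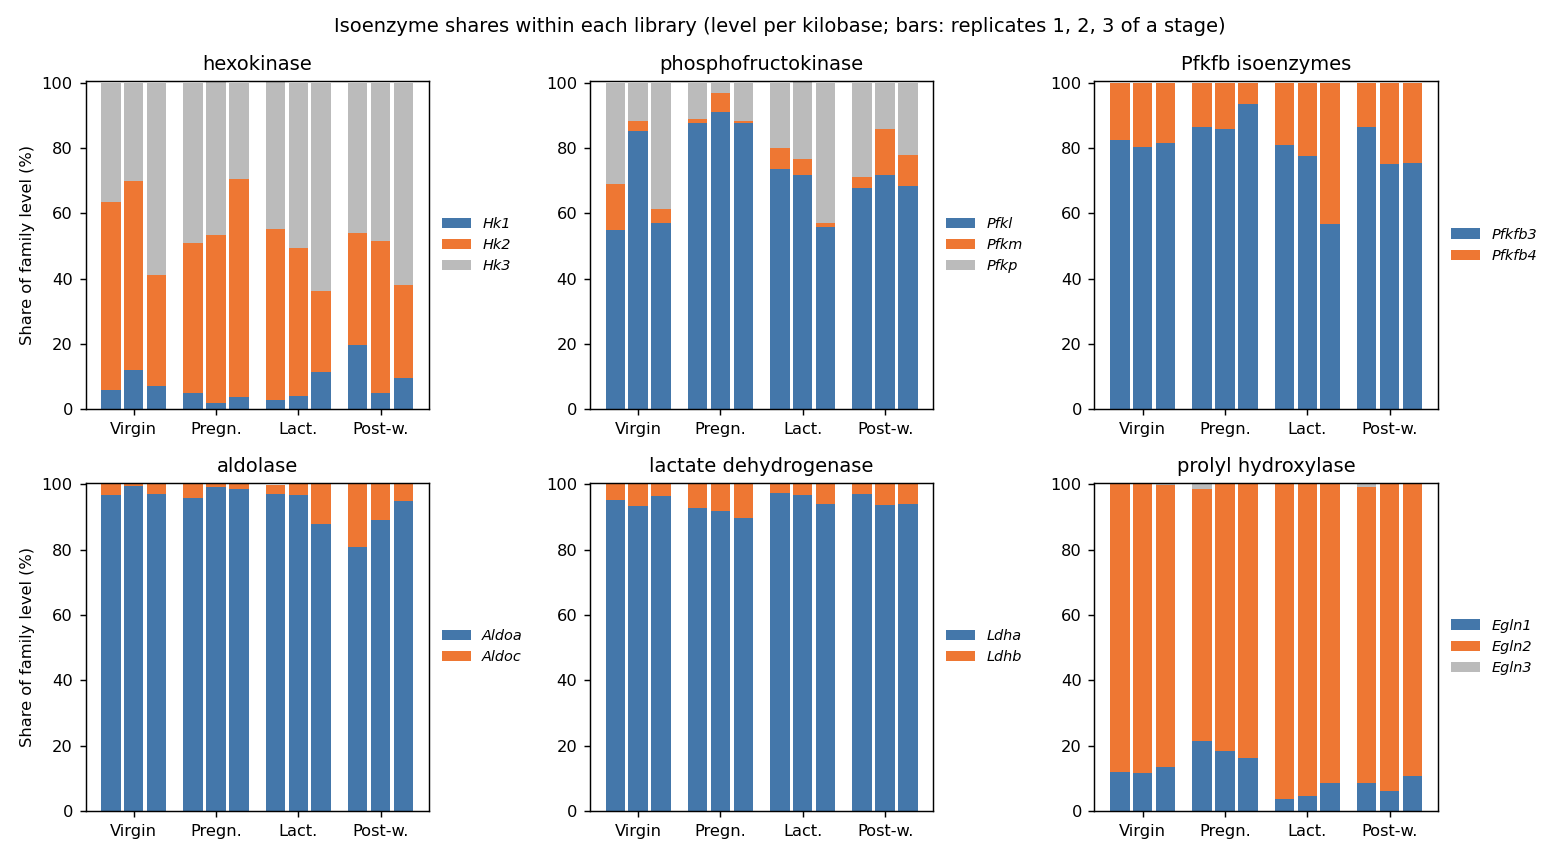
Each bar is 1 library (replicates 1, 2 and 3 of a stage from left to right) and is divided by the share of each isoenzyme in the summed level per kilobase of its family, in percent. Pfkl takes 87.6% to 90.9% in the pregnant libraries, and Egln2 takes its smallest shares, 77.1% to 83.7%, there too.

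Pfkfb3 and Pfkfb4 are bifunctional enzymes that set the level of fructose 2,6-bisphosphate, the activator of phosphofructokinase, and both are known HIF-1alpha targets. Pfkfb4 measured 19.9, 18.9 and 21.1 CPM in Virgin, 11.8, 10.2 and 10.5 in Pregnant, 20.4, 38.2 and 105 in Lactating and 15.8, 31.5 and 25.5 in Post-weaning. The 3 pregnant libraries were the lowest of the 12 and close together, and the lactating libraries were far apart. Pfkfb4 was called higher in Lactating than in Pregnant (2.34 ± 0.55, adjusted p = 0.03586 in edgeR). Without Lactating 3 the change was 1.38 ± 0.41 and was not called (adjusted p = 0.0866), and the call held under 9 of 20 alternatives. It was also lost without any 1 of the pregnant libraries (adjusted p up to 0.1622), without Virgin 1, Virgin 3, Post-weaning 2 or Post-weaning 3, with the replicate block, with only the libraries compared and with library totals alone. Pfkfb3 was the larger of the pair, at 56.8% to 93.5% of their summed level per kilobase, and measured 145, 121 and 145 CPM in Virgin, 117, 96.6 and 236 in Pregnant, 137, 205 and 217 in Lactating and 157, 150 and 123 in Post-weaning, with all stages overlapping and no call. Pfkfb4 supplied 43.2% of the pair in Lactating 3 and 19.0% and 22.6% in the other lactating libraries.

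The lower part of the pathway, from glyceraldehyde 3-phosphate to pyruvate, makes the ATP. Its last enzyme, pyruvate kinase, is encoded by Pkm, the form of macrophages and most other cells outside liver and red cells. Pkm measured 126, 171 and 203 CPM in Virgin, 281, 254 and 265 in Pregnant, 399, 308 and 585 in Lactating and 206, 294 and 240 in Post-weaning. All pregnant and all lactating libraries lay above the virgin ones, and the lactating ones lay above the other 9 except with library totals alone. Pkm was called higher in Lactating than in Virgin (1.37 ± 0.26, adjusted p = 0.0247 in edgeR), also without Lactating 3 (1.04 ± 0.23, adjusted p = 0.03023). The call was lost in 4 of 20 alternatives, without the first virgin library, without the second, with library totals alone and with only the 6 libraries compared (adjusted p = 0.2419, the highest). In the test of any stage difference Pkm stood at an adjusted p of 0.0525 in edgeR.

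Pgam1, phosphoglycerate mutase, measured 13.7, 17.8 and 17.2 CPM in Virgin, 18.9, 19.4 and 10.4 in Pregnant, 36.7, 37.6 and 25.1 in Lactating and 18.1, 16.8 and 14.3 in Post-weaning. The lactating libraries lay above the other 9 but the change was not called (1.03 ± 0.40 against Virgin, adjusted p = 0.2279 in edgeR). Eno1, the enolase of most tissues, was instead highest in pregnancy, with 37.0, 31.0 and 44.2 CPM in Virgin, 71.4, 61.7 and 67.6 in Pregnant, 43.3, 39.5 and 51.5 in Lactating and 46.9, 47.4 and 34.7 in Post-weaning. Its pregnant libraries lay above the other 9 (0.84 ± 0.26 against Virgin, adjusted p = 0.1969 in edgeR). Gapdh ranged from 3.11 to 8.16 CPM and Pgk1 from 0.574 to 5.89, with no call. The neuronal enolase Eno2 had 29 of its 30 counts in Post-weaning 1 and Post-weaning 3 (1.65 and 0.951 CPM), the other being in Virgin 3 (0.0731 CPM).

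**Figure D4:**
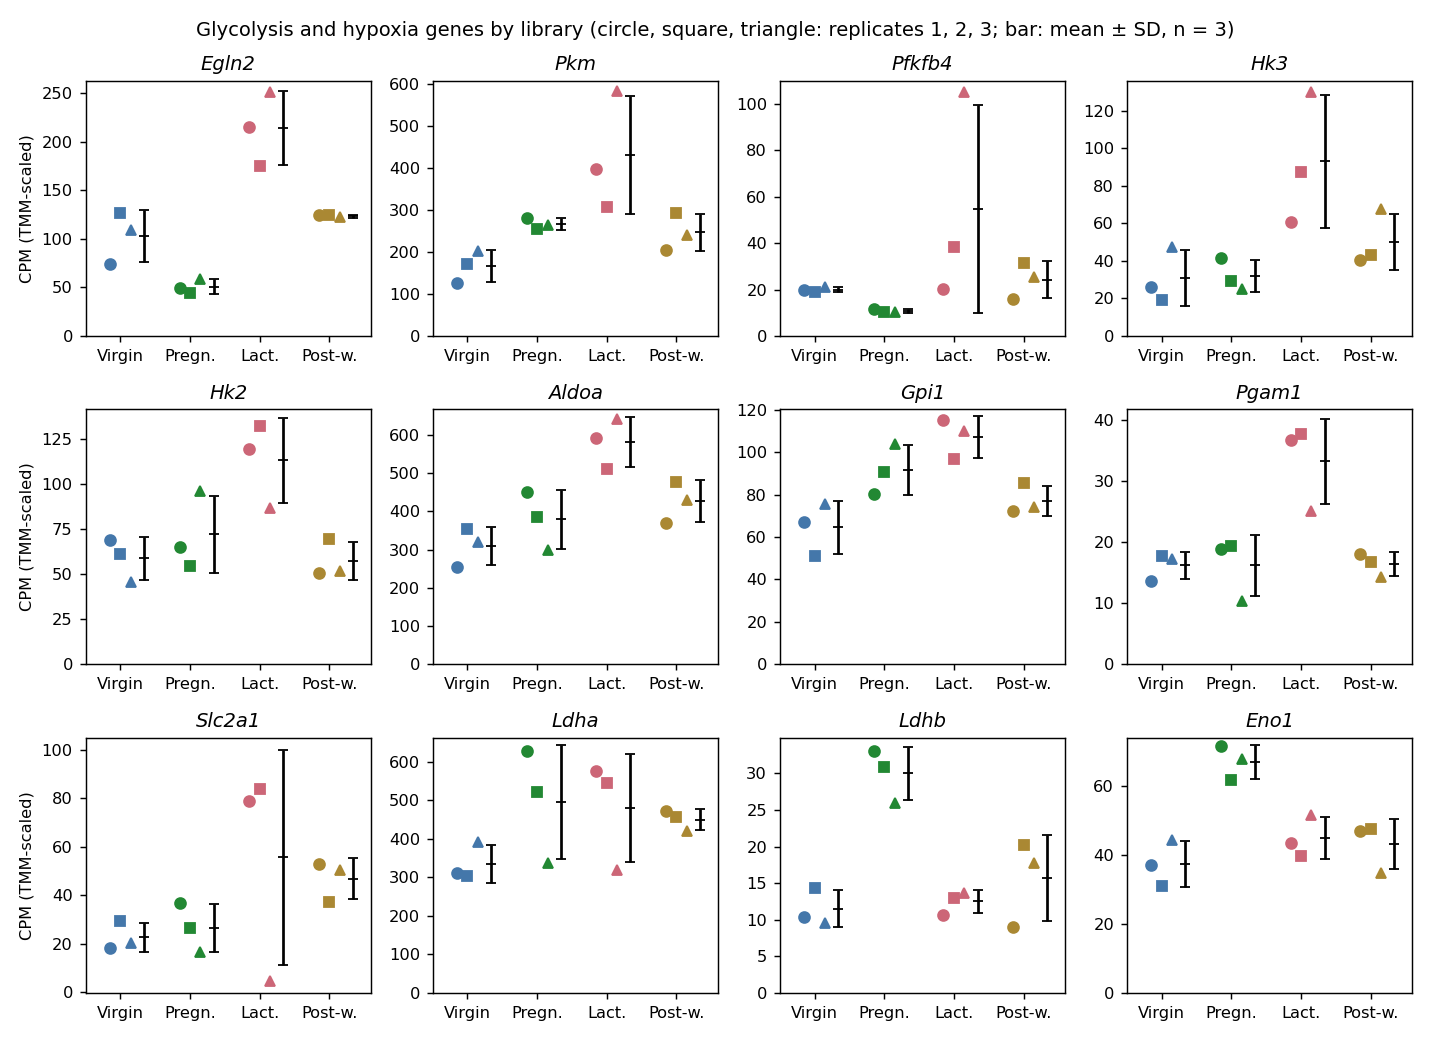
Each panel is 1 gene, with the stage on the x axis and CPM on the y axis. Symbols are the 3 libraries of a stage and bars give the mean ± SD (n = 3). Egln2, Pkm, Aldoa and Pgam1 have all lactating libraries above the other 9 (with library totals alone only Egln2 and Pgam1 do), Ldhb and Eno1 all pregnant libraries above the other 9, and Slc2a1 has Lactating 3 far below the other lactating libraries.

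At the branch after pyruvate, Ldha and Ldhb encode the subunits of lactate dehydrogenase. Pdk1 encodes a kinase that holds pyruvate out of the citric acid cycle by inhibiting pyruvate dehydrogenase, and Slc16a3 (MCT4) exports lactate. All 4 genes had a positive change in Pregnant against Virgin (0.57 to 1.39, median 1.10) and a negative one in Lactating against Pregnant (-1.55 to -0.05, median -0.75), and none was called in edgeR. Without Lactating 3, Slc16a3 (0.30 ± 0.67) and Ldha (0.13 ± 0.23) were positive in Lactating against Pregnant, which left Ldhb and Pdk1 negative. Ldhb measured 10.4, 14.3 and 9.58 CPM in Virgin, 33.1, 30.9 and 26.0 in Pregnant, 10.7, 13.0 and 13.7 in Lactating and 9.07, 20.2 and 17.8 in Post-weaning. Its pregnant libraries lay above the other 9 (1.39 ± 0.45 against Virgin, adjusted p = 0.2207 in edgeR, and -1.27 ± 0.45 in Lactating against Pregnant, adjusted p = 0.1523). DESeq2 called Ldhb in both comparisons (adjusted p = 0.02576 and 0.02703).

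Ldha measured 311, 303 and 391 CPM in Virgin, 629, 522 and 337 in Pregnant, 575, 544 and 318 in Lactating and 473, 457 and 421 in Post-weaning. The third pregnant and the third lactating library fell within the virgin range and the others of these stages lay above it (0.57 ± 0.27 in Pregnant against Virgin, adjusted p = 0.4375 in edgeR). Ldhb made up 8.6% ± 1.58 (SD, n = 3) of the lactate dehydrogenase level per kilobase in Pregnant, against 4.98% ± 1.55 in Virgin, 4.07% ± 1.75 in Lactating and 4.98% ± 1.90 in Post-weaning, and each pregnant library (7.30% to 10.4%) lay above the other 9 (2.72% to 6.61%). Pdk1 ran from 2.41 to 33.4 CPM within Virgin alone, against 27.0 to 52.2 in Pregnant and 10.6 to 16.3 in Lactating. Slc16a3 had no count in Lactating 3 and 3.79 to 16.3 CPM in the other libraries.

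In oxygen sensing, Egln2 measured 74.1, 127 and 109 CPM in Virgin, 48.9, 44.2 and 59.1 in Pregnant, 215, 175 and 251 in Lactating and 124, 124 and 122 in Post-weaning. All 3 lactating libraries lay above, and all 3 pregnant libraries below, the 6 virgin and post-weaning libraries. The rise from Pregnant to Lactating was 2.07 ± 0.24 on the log2 scale (adjusted p = 0.0008176 in edgeR), was called under all 20 alternatives (highest adjusted p = 0.021, with only the 6 libraries compared) and came to 1.89 ± 0.25 without Lactating 3. Post-weaning lay above Pregnant by 1.28 ± 0.24 (adjusted p = 0.03424, called under 9 of 20 alternatives). Lactating lay above Virgin by 1.05 ± 0.24 (adjusted p = 0.04708, called under 3 of 20 alternatives, and 0.08592 without Lactating 3). Pregnant against Virgin, at -1.02 ± 0.24, was not called (adjusted p = 0.06492) and was called without Lactating 3 (adjusted p = 0.03175) or without the first virgin library (0.04629). Of the bases in Egln2 exons, 0.393% overlap an exon of another gene, Cyp2t4 on the opposite strand.

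The other members of the oxygen sensing group did not share this course. Egln1, which encodes PHD2, the main hydroxylase of HIF-1alpha, measured 16.9, 28.2 and 28.0 CPM in Virgin, 22.8, 16.7 and 19.2 in Pregnant, 13.5, 14.1 and 39.4 in Lactating and 19.5, 13.5 and 24.7 in Post-weaning. All stages overlapped, and the change in Lactating against Pregnant was 0.19 ± 0.49 (adjusted p = 0.8921 in edgeR) with Lactating 3 and -0.56 ± 0.42 (adjusted p = 0.5243) without it. Egln2 made up a changing share of the family level per kilobase, at 77.1%, 81.5% and 83.7% in Pregnant, 88.0%, 88.3% and 86.4% in Virgin, 90.6%, 93.9% and 89.2% in Post-weaning and 96.4%, 95.4% and 91.4% in Lactating. The pregnant libraries had the lowest shares of the 12, the virgin ones came next, and Lactating and Post-weaning overlapped. Egln3, the hydroxylase that hypoxia itself induces most, was at 0.512 CPM in Virgin 3, 1.11 in Pregnant 1 and 1.65 in Post-weaning 1 and had no count in the other 9. The transcript of Hif1a, a subunit regulated mainly as protein, ranged from 58.0 to 192 CPM, with all stages overlapping and no call.

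Other gene groups were read across the same stages. Some changed in a comparison where Egln2 was called. They shared its course, lowest in Pregnant and highest in Lactating, to differing degrees. The 17 immediate early and stress genes summed to 4708 to 6368 CPM in Pregnant, 9134 to 13295 in Lactating, 12701 to 20472 in Virgin and 15990 to 17287 in Post-weaning. Of these 17 genes, 6 were called higher in Lactating than in Pregnant (2.65% of all tested genes were) and 8 higher in Post-weaning than in Pregnant (0.576% were). The 3 nuclear noncoding RNAs examined, which bear on RNA quality, summed to 8089 to 12307 CPM in Virgin, 5532 to 7112 in Pregnant, 12564 to 37956 in Lactating and 5859 to 10492 in Post-weaning. Of these, Neat1 (1.78 ± 0.31, adjusted p = 0.008176 in edgeR) and Malat1 (1.84 ± 0.41, adjusted p = 0.0285) were called higher in Lactating than in Pregnant. In the sum of these 3 RNAs every lactating library lay above every library of the other stages, as with Egln2. The pregnant libraries overlapped only the post-weaning ones. Milk genes (12, all tested) summed to at most 89.0 CPM in Virgin, 1644 to 13670 in Pregnant, 2184 to 67376 in Lactating and 473 to 2020 in Post-weaning. The 12 proliferation genes reached 568 to 685 CPM in Pregnant and 65.2 to 293 in the other stages. Luminal epithelial markers (11 of 13 tested) summed to 134 to 939 CPM in Virgin, 260 to 355 in Pregnant, 93.6 to 264 in Lactating and 231 to 933 in Post-weaning, and Krt19 was called lower in Lactating than in Pregnant (adjusted p = 0.006101 in edgeR). Summed basal epithelial, endothelial and adipocyte markers had their lowest stage mean in Pregnant and their highest in Lactating, as with Egln2. Their median log2 fold changes in Lactating against Pregnant were 1.99, 5.26 and 6.88 (8, 8 and 2 genes tested), with no call in edgeR. Lactating 3 held the highest sums. In Lactating 2 they were 160, 30.9 and 59.9 CPM, below Virgin 3 (188, 71.3 and 100), and Lactating 1 was lower still. Neutrophil markers stayed between 55.3 and 129 CPM, with S100a9, Ly6g, Retnlg, Cxcr2 and Ngp at 0 in all 12 libraries. The part of these gene groups in the Egln2 values was not tested.

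None of the 5 hypoxia targets outside glycolysis was called in any comparison in edgeR. All 5 (Bnip3, a mitophagy receptor; Vegfa, the angiogenic growth factor; P4ha1, a collagen prolyl hydroxylase; Ndrg1; and Ankrd37) had a negative change in Pregnant against Virgin (-2.49 to -0.15), and 2 of 5 had a positive one in Lactating against Virgin. Without Lactating 3 this was 1 of 5, since Ndrg1 turned from 1.14 ± 1.23 to -0.65 ± 1.23. Vegfa measured 27.4, 21.5 and 41.5 CPM in Virgin, 32.1, 10.6 and 32.7 in Pregnant, 18.7, 25.8 and 26.9 in Lactating and 30.4, 53.1 and 39.9 in Post-weaning, with overlapping stages. Bnip3 ranged from 15.6 to 50.6 CPM, P4ha1 from 27.8 to 92.9 and Ndrg1 from 0.317 to 82.8, its highest value being in Lactating 3. Ankrd37 had 133 counts in all and none in the 3 lactating libraries, at 0 to 4.36 CPM elsewhere, and no fold is given for it in lactation.

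**Figure D5:**
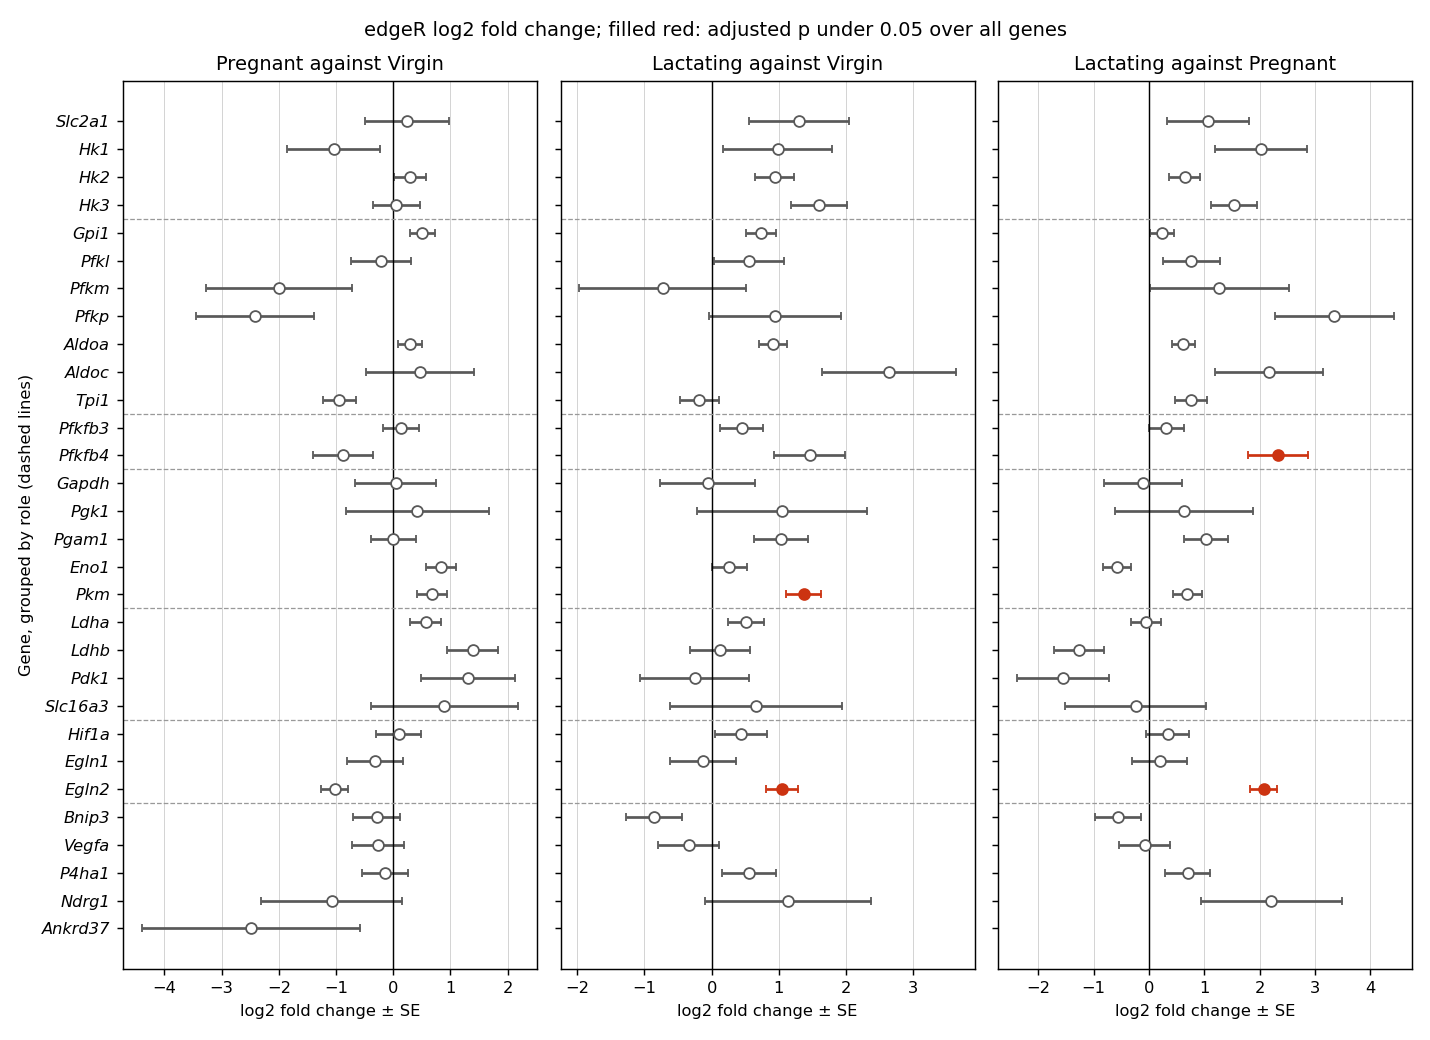
Points are edgeR log2 fold changes and bars their standard errors for the tested genes in 3 comparisons, on x axes that differ between panels, with filled red points for genes called over all genes. Egln2 and Pkm are red in Lactating against Virgin, Egln2 and Pfkfb4 in Lactating against Pregnant and none in Pregnant against Virgin, and Ankrd37 is left out where a stage had no count.

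Neighbouring pathways were read from further gene lists. Of 30 other genes of glycolysis and pyruvate use, 23 were tested and none was called by edgeR in any of the 8 tests, with 0 to 3 per test under an unadjusted p of 0.05. Of 19 genes of the citric acid cycle, all tested, none was called in edgeR either (0 to 3 under an unadjusted p of 0.05). Of all tested genes edgeR called 0% to 3.85% per test, so lists of this size could hold few calls. DESeq2 called 0 to 2 of the glycolysis genes per test, among them Pdk4, lower in Lactating than in Virgin or Pregnant, and 0 to 1 of the citric acid cycle genes. Over all genes DESeq2 called 123 to 1469 per test. In Pregnant against Virgin, 18 of the 19 citric acid cycle genes had a positive change (median 0.32, against 0.03 for all genes), and in Lactating against Pregnant 5 of 19 had (median -0.32 against -0.14).

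Among 8 genes of the pentose phosphate pathway, which branches from glucose 6-phosphate to make NADPH and ribose, Tkt and Taldo1, enzymes of its non-oxidative arm, were called. Of the 8, 1 was called higher in Lactating against Virgin (1.04% of all tested genes were). The same count held in Lactating against Pregnant (2.65%) and in Pregnant against Virgin (0.442%). Transketolase, Tkt, measured 118, 122 and 137 CPM in Virgin, 183, 144 and 160 in Pregnant, 264, 304 and 326 in Lactating and 173, 155 and 186 in Post-weaning. It rose in Lactating against Virgin by 1.25 ± 0.18 (adjusted p = 0.004989 in edgeR) and against Pregnant by 0.88 ± 0.18 (adjusted p = 0.01634). Transaldolase, Taldo1, measured 337, 263 and 286 CPM in Virgin, 565, 575 and 632 in Pregnant, 456, 464 and 616 in Lactating and 341, 479 and 398 in Post-weaning, and it rose in Pregnant against Virgin by 1.00 ± 0.20 (adjusted p = 0.03237 in edgeR). On the TMM scale every lactating library lay above every virgin one in both genes. With library totals alone only the call for Tkt in Lactating against Virgin remained.

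Of 40 further hypoxia response genes, 32 were tested. The 39 found in the data summed to 11332 CPM in Lactating 3 and to 2022 to 3664 CPM in the other libraries. Lactating 3 is the library where milk genes took 7.35% of the counts. Such a sum can rest on a few genes, and the genes behind it are not given here. In Pregnant against Virgin 1 rose and 1 fell in edgeR, where 0.442% of all tested genes rose and 0.876% fell. In Lactating against Virgin 1 rose and 1 fell (1.04% and 0.9% of all genes), and in Lactating against Pregnant 1 rose and 2 fell (2.65% and 1.2%). DESeq2 called more of them, 1 higher and 2 lower, 1 higher and 4 lower, and 4 higher and 5 lower in the same order. It also called more of all genes, 227 higher and 437 lower of 12409, 481 and 685 of 12170, and 777 and 692 of 12170. Bhlhe40, a transcription repressor induced by hypoxia, cytokines and clock signals, measured 73.4, 52.1 and 74.6 CPM in Virgin, 231, 219 and 259 in Pregnant, 286, 391 and 283 in Lactating and 171, 210 and 181 in Post-weaning. Its virgin libraries lay below all others, and it rose by 1.83 ± 0.21 in Pregnant (adjusted p = 0.005305 in edgeR) and 2.26 ± 0.22 in Lactating (adjusted p = 0.001097) against Virgin.

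Cited2, which competes with HIF-1alpha for its coactivator, measured 171, 415 and 253 CPM in Virgin, 63.2, 39.8 and 56.8 in Pregnant, 267, 247 and 127 in Lactating and 178, 146 and 148 in Post-weaning. It fell in Pregnant against Virgin (-2.39 ± 0.37, adjusted p = 0.01018 in edgeR) and was higher in Lactating than in Pregnant (2.0 ± 0.36, adjusted p = 0.01001). As with Egln2, all pregnant libraries lay below the other 9. Angptl4, an inhibitor of lipoprotein lipase, measured 11.2, 39.5 and 24.8 CPM in Virgin, 54.7, 52.8 and 30.1 in Pregnant and 14.7, 32.6 and 55.3 in Post-weaning, but 0, 1.28 and 0 in Lactating, which rests on 7 counts. It fell in Lactating against Virgin (adjusted p = 0.02708 in edgeR) and against Pregnant (adjusted p = 0.009464). Bnip3l, a mitophagy receptor related to Bnip3, ranged from 118 to 183 CPM in Pregnant and from 48.3 to 63.0 in Lactating, a change of -1.42 ± 0.33 (adjusted p = 0.03514 in edgeR). Without Lactating 3, Tkt, Taldo1, Bhlhe40, Cited2 and Angptl4 were called in the same comparisons and directions, and Bnip3l was not called.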

How the data were processed

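RNA sequencing covered 12 libraries of sorted mammary ductal macrophages, 3 per stage. The authors deposited unnormalized whole-number counts of reads for each gene. Per the submitters' processing notes, featureCounts and mm10 were used. No source used here gives the aligner, the strand setting or the treatment of multiply mapped reads. Symbols were matched by Entrez identifier for 25275 of 27179 genes (93%). After filterByExpr with the stages as groups, 12672 genes remained. TMM set the library sizes, and the robust quasi-likelihood fit of edgeR 4.0.16 (R 4.3.3) estimated 4 stage means from all 12 libraries together. SE was taken as the log2 fold change divided by the square root of F. Levels between genes are CPM divided by the deposited gene length. A simulation of Pregnant against Virgin on 12153 genes gave no false call but called few true changes: none of 66 at a fold of 2, 8 of 63 at a fold of 4, and 25 of 62 at a fold of 8. Alternatives were DESeq2 1.42.0, RLE size factors, TMM without milk, epithelial, mitochondrial and ribosomal genes, no filter, 5 CPM in 3 libraries, a replicate block, only the libraries compared, each library left out and, added after seeing the data, library totals without scaling factors. Members and lists were chosen with earlier results of these data known. A member has its value in every library given where it was called, was among the 12 with the lowest p for any stage difference, or was compared within an isoenzyme family, and genes of the 4 neighbouring pathway lists are named where called by edgeR. Slc2a1, Vegfa, Neat1, Malat1 and Krt19 were added after their values were seen, as were other members given by their range. Same-numbered libraries did not deviate together, with correlations from -0.08 to 0.0894 over 18 pairs, so the numbers were not used as pairs. With library totals of 6926273 to 21204704 counts the common biological coefficient of variation was 0.856. The members' standard errors had a median of 0.45 on the log2 scale for a pair of stages, against 0.80 to 0.81 for all tested genes. The simulation drew its changed genes from all tested genes, so its recovery does not describe the members. Counting intervals are not given, since the kit adds no molecular identifiers.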

Additional observations from a re-analysis of the deposited data

How the results depend on the processing

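With 3 libraries a stage, the spread between libraries set the precision, and Pgk1, Pfkm, Ankrd37, Eno2 and Egln3 had too few counts for more than a wide interval. Among the 12 members with the lowest p for any stage difference, none reversed the sign of a called change under an alternative. Of 1896 single values for these 12, 1824 kept their side of the threshold, 43 lost and 29 gained a call. Most of the 1896 belong to results that were not called in the main fit, and all 43 losses fall on the called ones. Of 20 alternatives, the call held in 3 for Egln2 and 16 for Pkm in Lactating against Virgin. It held in 9 for Pfkfb4 and 20 for Egln2 in Lactating against Pregnant, and in 9 for Egln2 in Post-weaning against Pregnant. DESeq2 called more members, 3 in Pregnant against Virgin, 6 in Lactating against Virgin, 7 in Lactating against Pregnant, 2 in Post-weaning against Lactating, 1 in Pregnant and Lactating against Virgin and Post-weaning, and 8 for any stage difference. Lactating against Virgin gave 3 members (Aldoa added) with TMM without milk, epithelial, mitochondrial and ribosomal genes and with the filter of 5 CPM, 1 with RLE size factors, 1 without a filter and 0 with only the libraries compared, and Lactating against Pregnant gave 1 with only the libraries compared. With library totals alone, added after seeing the data, members called were 0 in Lactating against Virgin, 1 in Lactating against Pregnant and 0 in Post-weaning against Pregnant, and over all genes the calls in Lactating against Virgin were 92 higher and 208 lower, against 132 and 114 with TMM, and in Lactating against Pregnant 206 and 362, against 336 and 152. The filter of 5 CPM gave 2 members for any stage difference. With the replicate block, members called were 1 in Lactating against Virgin, 1 in Lactating against Pregnant and 0 in Post-weaning against Pregnant, and 1 of 12 libraries correlated best with its own number. The cause of these shifts was not tested. Leaving out each library in turn gave 0 to 1 member in Pregnant against Virgin, 0 to 2 in Lactating against Virgin (0 without Virgin 1 or Virgin 2), 1 to 2 in Lactating against Pregnant, 0 to 1 in Post-weaning against Pregnant and 1 to 2 for any stage difference.

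Over all genes, DESeq2 called 664 against 167 in Pregnant against Virgin, 1166 against 246 in Lactating against Virgin, 123 against 0 in Post-weaning against Virgin (765 genes under an unadjusted p of 0.05 in edgeR), 1469 against 488 in Lactating against Pregnant, 502 against 91 in Post-weaning against Pregnant, 919 against 117 in Post-weaning against Lactating, 827 against 149 in the contrast of 2 stages with 2, and 1462 against 424 for any stage difference. The replicate block called 100, 139, 0, 346, 35, 42, 73 and 223 in the same order. With only the libraries compared the counts were 0 in Lactating against Virgin, 1 in Post-weaning against Virgin, 147 in Lactating against Pregnant, 590 in Post-weaning against Pregnant and 3 in Post-weaning against Lactating. Without Lactating 3 they rose to 438, 416, 10, 689, 308, 242, 425 and 773 in that order, and the lowest counts with a library left out were 40, 111, 0, 194, 1, 26, 50 and 171. Without division by gene length, 21 of 68 isoenzyme shares moved by more than the spread between replicates. Hk2 then made up 66.2% in Pregnant.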
